A study of Mus musculus with 6 samples.

Results

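Sites bound by UTX were taken at genes of the MAP kinase cascades and their brakes: MAP kinases and their upstream kinases (gene symbols starting Mapk, Map2k, Map3k and Map4k with a number), the downstream MAPKAP and ribosomal S6 kinases (Mapkapk, Rps6k), the dual-specificity phosphatases (Dusp with a number) and the Sprouty and Spred inhibitors. The members were every site assigned by the authors to a symbol of these names, 59 of the 6739 sites in the authors' deposited table. They belonged to 37 genes, of which 36 encode proteins and 1, Map2k3os, is a noncoding transcript beside Map2k3. UTX binding had been profiled by CUT&Tag, in which an antibody (here a rabbit monoclonal against UTX) guides a transposase that cuts and tags the DNA beside the bound protein. UTX, encoded by Kdm6a, removes methyl groups from a lysine of histone H3. The cells were Ly108+CXCR6- CD8 T cells, the progenitor gate, sorted from pancreatic lymph nodes.

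One group held 3 samples from UTXTCD.NY8.3 mice (genotype label UTX_knock), which lack UTX in T cells, and the other held 3 WT samples from NOD.NY8.3 mice. Both groups carried the NY8.3 background, a transgenic T cell receptor for a pancreatic islet antigen on the diabetes-prone NOD strain. The driver of the T cell deletion, the deleted part of Kdm6a, the age and sex of the mice, and whether samples came from separate animals are not stated in the labels. The comparison asks which regions UTX occupies directly, and the UTX-deficient cells show how much antibody signal is left without UTX. In bulk libraries, fewer cells with UTX at a site and less UTX per cell cannot be told apart.

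The table gives group values alone, so whole reads per library were recovered from them, and within each group the libraries are given from the deepest to the shallowest because they carry no replicate number. Depth relative to the mean of the 6 libraries was 1.93, 1.07 and 0.00577 in UTX-deficient cells and 1.28, 0.916 and 0.792 in WT cells. The third UTX-deficient library was thus recovered as nearly empty. It held 0 reads at each of the 59 member sites, and a count of 0 there allows up to 520 normalized reads (3 reads of that library), above the highest WT level of any member site, 113 normalized reads. Results are therefore also given without it. A normalized read is a read divided by the relative depth of its library. At the only site assigned to the targeted gene, Kdm6a, the UTX-deficient libraries held 8, 12 and 0 reads, against 65, 48 and 35 in WT libraries. Because the deleted part is not known, that site does not check the genotype. Of marker genes, a site lower in UTX-deficient cells lay at 4 of 5 CD8 T cell genes (not at Cd3g) and at 6 of 6 progenitor genes. Cxcr6, the gene of the marker sorted against, also had such a site, and 0 of 5 B cell and 0 of 5 myeloid genes did. Among all protein-coding genes the share was 4834 of 21900 (22.1%), so 0 of 5 in lists this short does not show that such cells were absent. A bound site does not show expression, so these counts bear on binding alone.

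MAP kinase cascades relay signals from receptors to the nucleus by serial phosphorylation: MAP4 kinases act on MAP3 kinases, which switch on MAP2 kinases. MAP2 kinases phosphorylate the ERK, JNK and p38 MAP kinases on neighbouring threonine and tyrosine residues. Active MAP kinases switch on the RSK, MSK and MAPKAP kinases and transcription factors, and dual-specificity phosphatases remove both phosphates and end the signal. In T cells the ERK branch follows RAS activation at the T cell receptor, and several phosphatase genes are themselves induced by it as feedback.

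The sequence before the transcription start is shown for 6 member genes, chosen because the results below turn on them: the phosphatase genes Dusp1, Dusp2 and Dusp10 with 3 or 4 sites each, the kinase gene Rps6ka1 with the most sites, Map2k2, with a site at each end, and Map4k2, whose site at the start had the lowest fold of any member site at a start. The sequences are from RefSeq on GRCm38.p6, the assembly of mm10, and run 5′ to 3′ on the strand of the gene, ending at the base before the start. Their positions are chr17:26508473-26508722 (minus strand) for Dusp1, chr2:127335909-127336158 (plus) for Dusp2, chr1:184034131-184034380 (plus) for Dusp10, chr10:81105665-81105914 (plus) for Map2k2, chr19:6340910-6341159 (plus) for Map4k2 and chr4:133887798-133888047 (minus) for Rps6ka1. A UTX site of 401 bp overlapped each of them. Capitals mark the letters GGGCGG (the Sp and KLF box), TGACGT (the core of the cAMP response element) and GCGCATG (part of the NRF1 motif) on either strand, where overlapping matches run together.
Dusp1: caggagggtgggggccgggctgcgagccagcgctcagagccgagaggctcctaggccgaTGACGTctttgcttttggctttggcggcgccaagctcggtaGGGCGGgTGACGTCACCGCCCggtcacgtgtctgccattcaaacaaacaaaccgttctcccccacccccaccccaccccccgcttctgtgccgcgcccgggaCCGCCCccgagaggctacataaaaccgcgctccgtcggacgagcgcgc
Dusp2: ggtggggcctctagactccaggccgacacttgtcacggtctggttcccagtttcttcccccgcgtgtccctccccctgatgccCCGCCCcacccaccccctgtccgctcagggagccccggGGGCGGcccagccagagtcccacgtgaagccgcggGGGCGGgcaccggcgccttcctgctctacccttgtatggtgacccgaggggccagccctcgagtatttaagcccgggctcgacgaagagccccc
Dusp10: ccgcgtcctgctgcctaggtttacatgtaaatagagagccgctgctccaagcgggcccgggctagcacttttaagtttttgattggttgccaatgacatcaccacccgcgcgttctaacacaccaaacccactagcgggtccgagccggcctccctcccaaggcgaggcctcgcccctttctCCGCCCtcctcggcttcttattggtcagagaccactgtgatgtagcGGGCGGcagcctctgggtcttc
Map2k2: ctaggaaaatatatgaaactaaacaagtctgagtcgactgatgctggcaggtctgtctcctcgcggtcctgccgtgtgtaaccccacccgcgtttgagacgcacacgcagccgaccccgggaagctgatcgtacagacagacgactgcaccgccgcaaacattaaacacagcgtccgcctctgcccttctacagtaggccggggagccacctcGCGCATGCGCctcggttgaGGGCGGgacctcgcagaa
Map4k2: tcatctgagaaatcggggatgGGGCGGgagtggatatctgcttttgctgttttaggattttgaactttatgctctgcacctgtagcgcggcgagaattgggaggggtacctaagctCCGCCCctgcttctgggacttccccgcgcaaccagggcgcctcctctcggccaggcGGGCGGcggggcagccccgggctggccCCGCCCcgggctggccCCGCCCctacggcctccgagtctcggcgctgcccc
Rps6ka1: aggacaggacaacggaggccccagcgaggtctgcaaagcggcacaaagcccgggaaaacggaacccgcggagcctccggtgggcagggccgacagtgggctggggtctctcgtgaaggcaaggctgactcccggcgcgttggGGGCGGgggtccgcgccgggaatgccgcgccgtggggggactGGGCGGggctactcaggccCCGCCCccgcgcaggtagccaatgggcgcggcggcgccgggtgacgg
Dusp1 holds TGACGT with its first base 191 and 143 bases before the start, and again on the opposite strand at 141, overlapping the second. In the other sequences the capitals mark GGGCGG, besides the GCGCATG pair of Map2k2, whose matches on both strands overlap. These matches are letters in a window and are not evidence of a bound factor.

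All 59 member sites had less UTX signal in UTX-deficient cells. In the authors' deposited table each had a negative log2 fold (UTX-deficient over WT), from -6.36 to -2.34, and an FDR from 3.98e-24 (Dusp1) to 0.0229 (Spry4). This was the rule in the table and is no property of these genes: the table holds only sites with an FDR under 0.05, and 99.7% of its sites were lower in UTX-deficient cells, as were 81% of the 8293 tests behind its FDR values. Over the member sites, the mean per library was 1.02, 3.63 and 0 normalized reads in UTX-deficient cells, against 43.8, 47.1 and 40.9 in WT cells. The 0 of the nearly empty library carries no information, and each WT library lay above both well-sequenced UTX-deficient ones. These 2 averaged 2.33 ± 1.85 normalized reads in UTX-deficient cells (SD, n = 2), against 43.9 ± 3.09 in WT cells (SD, n = 3). A two-sided exact permutation test of 3 against 3 libraries cannot give a p under 0.1, and none is given here for a mean over chosen sites. The level was 18.9-fold higher in WT over the member sites, against 16.8-fold over all sites lower in UTX-deficient cells. That fold depends on the library, since the first UTX-deficient library alone gives 43.2-fold over the member sites and the second alone 12.1-fold, against 34.7-fold and 11.1-fold over all sites. The second library had the higher normalized value at 51 of the 59 member sites (86.4%) and at 83.9% of all sites.

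A test per site on the recovered reads, limma on log2(normalized reads + 1) with Benjamini-Hochberg adjustment over the whole table, called all 59 sites lower with every library (highest adjusted p = 9.86e-05) and without the nearly empty one (adjusted p from 3.39e-08 to 8.54e-05). In both fits 99.8% of the sites tested in the whole table were called lower, so the members stood with the rest. These calls depend on the scaling: with every library scaled to the same total over the table, limma called 5 of the 59 member sites and 270 of all sites, the members' median log2 difference was -1.76 and that of all sites -1.57. That fit kept the nearly empty library, whose lack of reads at the member sites counts in it as a measured value. It was not run without that library, so its medians do not show the direction in the well-sequenced libraries under equal totals. In depth-normalized reads without the nearly empty library, the highest UTX-deficient value lay below the lowest WT value at 59 of 59 member sites. This held for 99.8% of the sites of the table.

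The median WT level of the member sites was 37.4 normalized reads (quartiles 24.8 and 53.3), against 30.6 (21.9 and 46.9) over all sites. Their median log2 fold in the authors' deposited table was -3.89 (quartiles -4.18 and -3.23), against -3.50 (-4.06 and -2.90) over all sites, with quartile ranges that overlap. In the 2 well-sequenced UTX-deficient libraries the signal left was 4.19% of the WT level at the median member site and 4.92% at the median site of the table.

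**Figure D1:**
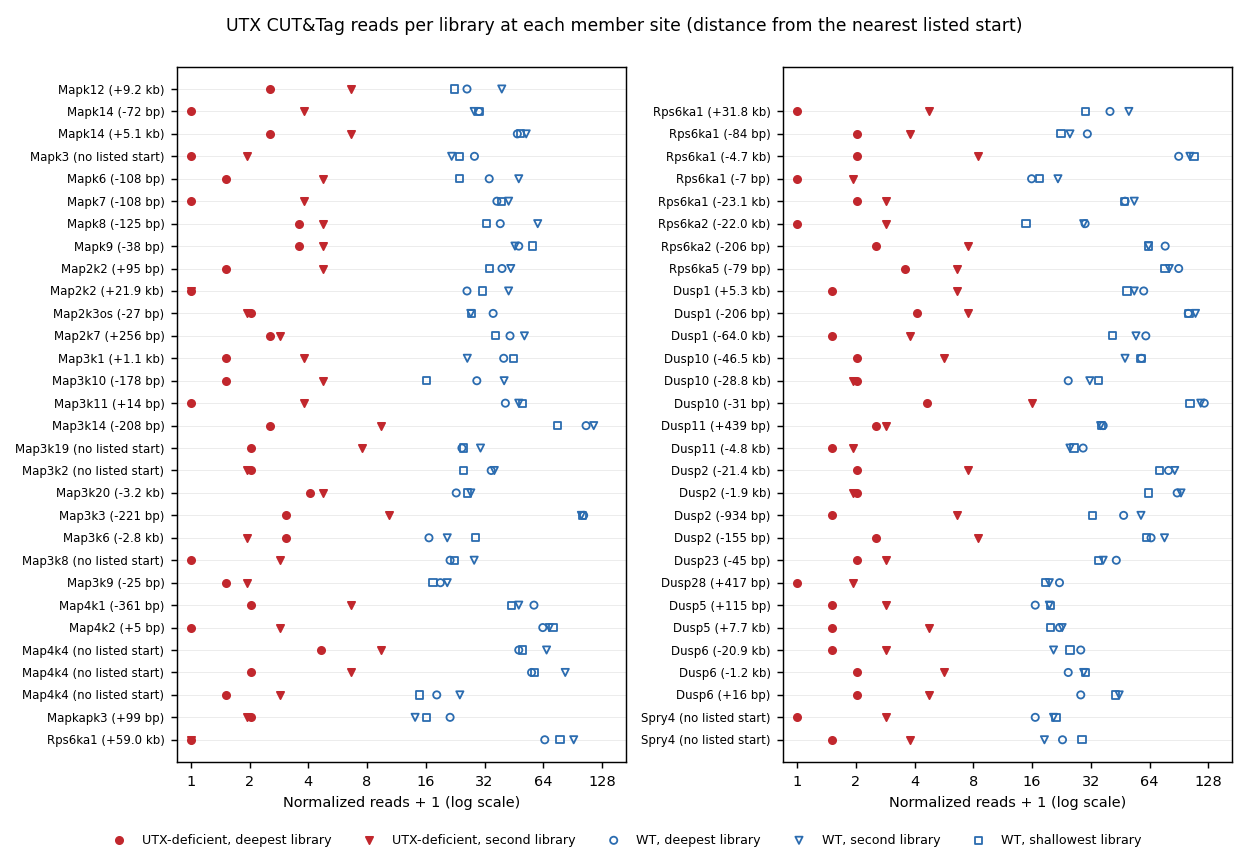
Normalized reads plus 1 (x axis, log scale) at each of the 59 member sites (rows, with the distance of the site from the nearest listed start, negative upstream) in the 2 deeper UTX-deficient libraries (filled red) and the 3 WT libraries (open blue). The nearly empty UTX-deficient library, with 0 reads at every one of these sites, is not drawn, and no red symbol reaches the lowest blue symbol of its row.

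The share of genes with a site was higher among the members than among protein-coding genes as a whole. Of 93 annotated protein-coding genes with these names, 36 (38.7%) had at least 1 site lower in UTX-deficient cells, against 4834 of 21900 protein-coding genes (22.1%). Genes with 2 or more such sites were 12 of 93 (12.9%), against 888 of 21900 (4.05%). By family the share ran from 3 of 5 MAP4K genes (60%) and 11 of 19 MAP3K genes (57.9%) through 7 of 18 MAP kinases and scaffolds (38.9%) to 1 of 7 Sprouty and Spred genes (14.3%). The phosphatases had a site at 8 of 24 genes (33.3%) but held 19 of the 59 sites, since 6 of those 8 genes had 2 or more. These counts describe lists chosen with earlier results of these data known, and they were not tested.

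**Figure D2:**
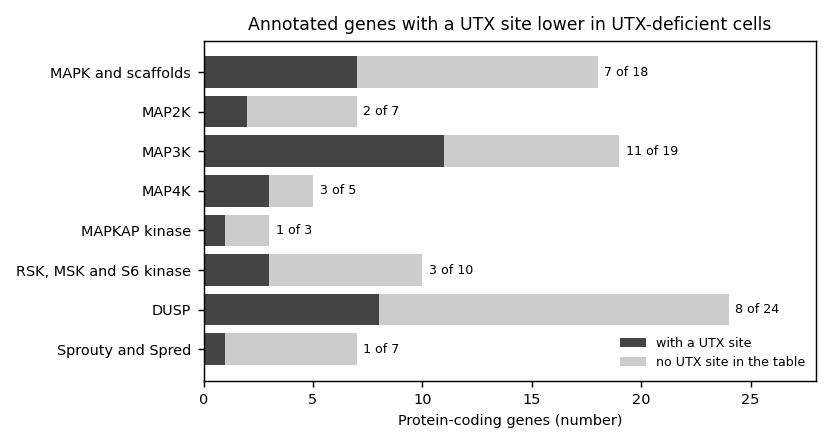
Number of annotated protein-coding genes in each family (x axis, bar length) with a UTX site lower in UTX-deficient cells (dark) and with none in the table (light). The MAP3K family has a site at 11 of 19 genes, and the Sprouty and Spred family at 1 of 7.

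At the top of the cascades, the MAP4 kinase genes Map4k1, Map4k2 and Map4k4 carried 5 sites. Map4k2 encodes a germinal centre kinase that acts in the JNK branch, and its site at chr19:6340965-6341365 was centred 5 bp downstream of the listed start. There the UTX-deficient libraries held 0, 2 and 0 reads, against 80, 62 and 56 in WT libraries. Its log2 fold per the authors' deposited table, -5.51 (FDR 2.24e-14), was the second lowest of the member sites, and without the nearly empty library the limma difference was -5.33 ± 0.55 (SE, adjusted p = 1.98e-07). Map4k4, a kinase of the JNK branch also tied to cell migration, had 3 sites within 40.4 kb, one 4187 bp outside the gene and the others inside it. The outer site kept 7, 9 and 0 reads in UTX-deficient libraries, against 60, 60 and 39 in WT libraries, which is 9.99% of the WT level in the 2 deeper libraries (exact 95% interval 5.58 to 16.7, for counting error only). The middle one, with 2, 6 and 0 reads in UTX-deficient libraries and 70, 75 and 45 in WT libraries, kept 4.18% (1.78 to 8.41), and these intervals overlap. The innermost Map4k4 site was weak, with 1, 2 and 0 reads in UTX-deficient libraries and 22, 21 and 11 in WT libraries. At Map4k1, which encodes HPK1, a brake on T cell receptor signalling, the site 361 bp upstream of a listed start held 2, 6 and 0 reads in UTX-deficient libraries and 72, 43 and 34 in WT libraries. Map4k3 and Map4k5 had no site.

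Among the MAP3 kinases, 11 genes had 1 site each, and WT levels ran from 18 to 101 normalized reads. The strongest lay just upstream of Map3k3 and Map3k14. Map3k3 encodes MEKK3, and its site at chr11:106084166-106084566, 221 bp upstream of the start, held 4, 10 and 0 reads in UTX-deficient libraries and 131, 91 and 80 in WT libraries. In normalized reads the UTX-deficient libraries were at 2.07, 9.32 and 0, and the WT libraries were nearly level at 102, 99.3 and 101. The authors' deposited table gives Map3k3 a log2 fold of -4.22 and an FDR of 4.11e-22, the smallest among the MAP3 kinases. Map3k14 encodes NIK, the kinase of the noncanonical NF-κB pathway, and its site at chr11:103267409-103267809, 208 bp upstream, held 3, 9 and 0 reads in UTX-deficient libraries and 134, 105 and 59 in WT libraries (log2 fold -4.19 per the authors' deposited table). Map3k11, which encodes the mixed lineage kinase MLK3, had the lowest fold of the family in the authors' deposited table, -4.65, with 0, 3 and 0 reads in UTX-deficient libraries and 51, 43 and 39 in WT libraries. That site lay 14 bp downstream of the listed start of Map3k11 and 142 bp from an end of the neighbouring gene Pcnx3, so the assignment to 1 of the pair is the authors'.

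The other MAP3 kinase genes were Map3k1 (MEKK1), Map3k2 (MEKK2), Map3k6 (ASK2), Map3k8 (TPL2), Map3k9 (MLK1), Map3k10 (MLK2), Map3k19 and Map3k20 (ZAK). Map3k8, the kinase that couples inflammatory receptors to ERK, had its site 36.0 kb outside the gene, with 0, 2 and 0 reads in UTX-deficient libraries and 26, 25 and 17 in WT libraries. An end of Gm7400 lay 796 bp from that site. Map3k20, a sensor of stalled ribosomes, kept the largest share of the WT level of all member sites, 13.8% (exact 95% interval 6.35 to 26.9), with 6, 4 and 0 reads in UTX-deficient libraries and 28, 24 and 20 in WT libraries. Map3k19 followed at 11.8% (5.18 to 23.5), with 2, 7 and 0 reads in UTX-deficient libraries and 30, 27 and 19 in WT libraries. Both were weak sites, singled out as the highest of 59 shares after the values had been seen. The 2 well-sequenced UTX-deficient libraries gave 12.7% and 15.3% of the WT level at Map3k20, and 4.03% and 25.5% at Map3k19, where the second library alone carries the high share. Map3k1, a kinase of the JNK branch, had 1, 3 and 0 reads in UTX-deficient libraries and 50, 23 and 35 in WT libraries at a site inside the gene, where the WT libraries spread widely. An end of Gm15327, at 1274 bp, was nearer to that site than an end of Map3k1. Map3k2, with 2, 1 and 0 reads in UTX-deficient libraries and 43, 32 and 19 in WT libraries, and Map3k9, with 1, 1 and 0 in UTX-deficient libraries and 23, 18 and 13 in WT libraries, had a site within 1 kb of an end of the gene. The Map3k10 site, with 1, 4 and 0 reads in UTX-deficient libraries and 36, 36 and 12 in WT libraries, lay 98 bp from an end of Zfp607b, nearer than to Map3k10 itself. Map3k6 held 4, 1 and 0 reads in UTX-deficient libraries and 20, 18 and 22 in WT libraries at a site 11 bp from an end of the gene. No site was assigned to Map3k4, Map3k5, Map3k7, Map3k7cl, Map3k12, Map3k13, Map3k15 or Map3k21. Map3k7 encodes TAK1, a kinase downstream of the T cell receptor and Toll-like receptors, and the nearest site to it was 125882 bp away.

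The MAP2 kinases with a site belonged to the ERK and JNK branches. Map2k2, which encodes MEK2, an activator of ERK, had 2 sites, and its paralogue Map2k1 (MEK1) had none, with the nearest site 162612 bp away. The Map2k2 site at the start, chr10:81105810-81106210, held 1, 4 and 0 reads in UTX-deficient libraries and 49, 39 and 26 in WT libraries (log2 fold -3.92 in the authors' deposited table). The other, chr10:81127570-81127970, 3073 bp past the far end of the gene, held no read in any UTX-deficient library, against 32, 38 and 24 reads in WT libraries. Taking 3 reads over the 2 deeper UTX-deficient libraries as the floor, the signal there was at least 31.5-fold lower in UTX-deficient cells. Map2k7, which encodes MKK7, an activator of JNK, had 3, 2 and 0 reads in UTX-deficient libraries and 54, 46 and 28 in WT libraries at a site 256 bp inside the gene (log2 fold -4.16 in the authors' deposited table). Map2k3, Map2k4, Map2k5 and Map2k6 had no site assigned. The Map2k3os site lay 160 bp from the start of Map2k3, an activator of p38, and held 2, 1 and 0 reads in UTX-deficient libraries and 44, 24 and 21 in WT libraries.

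MAP kinase genes of every main branch had a site. In the ERK branch Mapk3 had a site, in the JNK branch Mapk8 and Mapk9, and in the p38 branch Mapk12 and Mapk14. Mapk6 and Mapk7, the genes of ERK3 and ERK5, had a site as well. Mapk3 encodes ERK1, and its site 29 bp outside the gene, chr7:126759397-126759797, held 0, 1 and 0 reads in UTX-deficient libraries and 35, 19 and 18 in WT libraries. Its log2 fold in the authors' deposited table was -4.07 (FDR 1.79e-05). A gene without a site is one for which the table has none past the authors' FDR, and is not shown to be unbound.

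The lowest fold among the MAP kinases in the authors' deposited table, -4.39, was at Mapk7, the gene of ERK5, where the UTX-deficient libraries held 0, 3 and 0 reads and the WT libraries 46, 38 and 30. Mapk8 and Mapk9, the genes of JNK1 and JNK2, had the same reads left, 5, 4 and 0 in UTX-deficient libraries at each. In WT libraries Mapk8 had 48, 54 and 25 reads and Mapk9 had 60, 41 and 44. Mapk14 encodes p38α and had a site 72 bp upstream of its start, which was 3 bp from an end of the neighbouring gene Slc26a8, and another inside the gene 5106 bp downstream. The upstream site held 0, 3 and 0 reads in UTX-deficient libraries and 37, 25 and 23 in WT libraries, and the inner one 3, 6 and 0 in UTX-deficient libraries and 59, 47 and 38 in WT libraries. Both had nearly the same log2 fold in the authors' deposited table, -3.68 and -3.72. Mapk12, the gene of p38γ, kept 10.6% of the WT level (exact 95% interval 4.7 to 21.2) at a weak site inside the gene, with 3, 6 and 0 reads in UTX-deficient libraries against 32, 35 and 17 in WT libraries. Mapk6, the gene of the atypical kinase ERK3, had a site nearer to an end of 4933433G15Rik, at 60 bp, with 1, 4 and 0 reads in UTX-deficient libraries and 42, 43 and 18 in WT libraries. The p38 genes Mapk11 and Mapk13, the neuronal JNK gene Mapk10, Mapk4, Mapk15 and the scaffold genes Mapk8ip1, Mapk8ip2 and Mapk8ip3 had none, nor did Mapk1ip1 and Mapk1ip1l.

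Downstream of ERK and p38, Rps6ka1 stood out by its number of sites. It encodes RSK1, a kinase activated by ERK, and had 6 sites over 97.2 kb. Over all sites, 23 protein-coding genes had 6 or more. The site at the gene's outermost start, chr4:133887604-133888004, was the weakest of the 6, with 0, 1 and 0 reads in UTX-deficient libraries and 19, 19 and 13 in WT libraries. The strongest, chr4:133879183-133879583, lay within the gene, 4652 bp upstream of an internal start, with 2, 8 and 0 reads in UTX-deficient libraries and 114, 93 and 85 in WT libraries. Its FDR of 5.77e-20 was the smallest of the 6 in the authors' deposited table, and its log2 fold there was -4.57. An end of Gm12977 lay 261 bp from this strongest site, nearer than either end of Rps6ka1. Another site, 84 bp upstream of a further internal start, held 2, 3 and 0 reads in UTX-deficient libraries and 38, 22 and 17 in WT libraries. Its nearest gene end was also that of Gm12977, at 1155 bp. WT levels of the 6 sites thus ranged 5.73-fold, from 17.3 to 99.3 normalized reads.

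Outside Rps6ka1, the site farthest past its end, chr4:133813854-133814254, 33.2 kb beyond the gene, had the lowest log2 fold of all member sites in the authors' deposited table, -6.36. It held no read in any UTX-deficient library, against 82, 83 and 61 in WT libraries, and with the floor of 3 reads the signal was at least 75.9-fold lower in UTX-deficient cells. The fitted fold of such a site depends on the fit and is no bound. This site and the one past Map2k2 were the 2 of 59 member sites (3.39%) with no read in either well-sequenced UTX-deficient library, against 1.49% over the table. The nearest gene end to it was that of Gm34296, at 1091 bp, so its link to Rps6ka1 rests on the authors' assignment. The remaining Rps6ka1 sites lay 6091 bp past the end of the gene, with 0, 4 and 0 reads in UTX-deficient libraries and 50, 45 and 23 in WT libraries, and 23.1 kb upstream of it, with 2, 2 and 0 in UTX-deficient libraries and 60, 48 and 37 in WT libraries.

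Rps6ka2, the gene of the related kinase RSK3, had 2 sites, both inside the gene, whose only listed start is internal. The one 206 bp upstream of the listed start held 3, 7 and 0 reads in UTX-deficient libraries and 97, 57 and 49 in WT libraries, and the one 22.0 kb upstream held 0, 2 and 0 in UTX-deficient libraries and 37, 26 and 11 in WT libraries. Rps6ka5 encodes MSK1, which phosphorylates histone H3 and CREB after ERK or p38 activation. Its site, 79 bp upstream of the start at chr12:100724999-100725399, held 5, 6 and 0 reads in UTX-deficient libraries and 114, 73 and 60 in WT libraries, and the authors' deposited table puts it at -4.26 on the log2 scale (FDR 1.1e-20). Mapkapk3, a p38-activated kinase, had the weakest member site, with 2, 1 and 0 reads in UTX-deficient libraries and 26, 12 and 12 in WT libraries. Mapkapk2, Mapkapk5, Rps6ka3, Rps6ka4, Rps6ka6, Rps6kb1, Rps6kb2, Rps6kc1 and Rps6kl1 had no site assigned.

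The phosphatases held the strongest sites of the set. At Dusp1, which encodes MKP-1, an inducible nuclear phosphatase of p38, JNK and ERK, the site 206 bp upstream of the start, chr17:26508478-26508878, overlaps the printed sequence with the TGACGT matches. It held 6, 7 and 0 reads in UTX-deficient libraries and 128, 100 and 80 in WT libraries. The normalized reads were 3.1, 6.53 and 0 in UTX-deficient libraries and 100, 109 and 101 in WT libraries. The authors' deposited table gives it the smallest FDR of all members, 3.98e-24, with a log2 fold of -4.38, and the limma difference without the nearly empty library was -4.23 ± 0.63 (SE, adjusted p = 4.48e-06). Dusp1 had 2 more sites. One lay 2455 bp past the end of the gene, with 1, 6 and 0 reads in UTX-deficient libraries and 75, 48 and 38 in WT libraries, and the other 64.0 kb upstream, with 1, 3 and 0 in UTX-deficient libraries and 77, 49 and 32 in WT libraries. The upstream site was 6373 bp from an end of 1700049J03Rik, which was nearer than Dusp1. The site past the end of the gene was 1211 bp from an end of Gm34455, also nearer than Dusp1.

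Dusp10 had the highest WT level of all member sites. It encodes MKP-5, a phosphatase of JNK and p38, and its site at chr1:184034150-184034550, 31 bp upstream of the start, held 7, 16 and 0 reads in UTX-deficient libraries and 155, 106 and 81 in WT libraries. This was also the member site with the most reads left in UTX-deficient cells, 6.68% of the WT level (exact 95% interval 4.18 to 10.2). Its limma difference was -3.73 ± 0.70 (SE, adjusted p = 5.33e-05) without the nearly empty library and -4.76 ± 1.22 (SE, adjusted p = 9.86e-05) with it. The distal sites were weaker in WT. The one 46.5 kb upstream held 2, 5 and 0 reads in UTX-deficient libraries and 73, 43 and 45 in WT libraries, and the one 28.8 kb upstream 2, 1 and 0 in UTX-deficient libraries and 30, 28 and 27 in WT libraries. For both, the nearest gene end was that of Gm39725.

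Dusp2 encodes PAC-1, a nuclear phosphatase induced in activated lymphocytes, and had 4 sites, all of them upstream of a gene of 2.22 kb. From the start outwards they lay 155 bp, 934 bp, 1869 bp and 21.4 kb upstream. At 155 bp the UTX-deficient libraries held 3, 8 and 0 reads, against 82, 69 and 48 in WT libraries. At 1869 bp, chr2:127334090-127334490, they held 2, 1 and 0 reads, against 112, 84 and 49 in WT libraries. The authors' deposited table gives that site -5.49, the lowest log2 fold of the phosphatases. The signal left there was 1.22% of the WT level (exact 95% interval 0.249 to 3.6), against 5.49% (2.7 to 10.0) at 155 bp, and these intervals overlap. The site at 934 bp held 1, 6 and 0 reads in UTX-deficient libraries and 59, 52 and 25 in WT libraries, and the farthest one 2, 7 and 0 in UTX-deficient libraries and 101, 78 and 56 in WT libraries. The 3 sites beyond 155 bp lay nearer an end of Gm46762 than of Dusp2.

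The ERK phosphatases Dusp5 and Dusp6 had weaker sites. Dusp6, the gene of the cytoplasmic phosphatase MKP-3, had 3 of them, of which the one 16 bp inside the gene was strongest, with 2, 4 and 0 reads in UTX-deficient libraries and 35, 40 and 33 in WT libraries. At 1165 bp upstream the UTX-deficient libraries held 2, 5 and 0 reads, against 30, 26 and 23 in WT libraries, and at 20.9 kb upstream 1, 2 and 0 in UTX-deficient libraries and 35, 18 and 19 in WT libraries. The farthest site was 3319 bp from an end of Gm34777, nearer than Dusp6. Dusp5, the gene of a nuclear ERK phosphatase, had a site 115 bp inside the gene, with 1, 2 and 0 reads in UTX-deficient libraries and 20, 17 and 15 in WT libraries. Its other site, 7714 bp downstream of the start, had the log2 fold nearest to 0 of the phosphatases in the authors' deposited table, -2.55, with 1, 4 and 0 reads in UTX-deficient libraries and 27, 20 and 15 in WT libraries. Dusp4, a close relative of Dusp1 and Dusp2 and another nuclear phosphatase, had no site, the nearest being 145841 bp away.

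Of the atypical members, Dusp11, which acts on RNA rather than on MAP kinases, had a site 439 bp downstream of the listed start. It held 3, 2 and 0 reads in UTX-deficient libraries and 46, 32 and 28 in WT libraries. A second Dusp11 site 4794 bp upstream held 1, 1 and 0 reads in UTX-deficient libraries and 36, 22 and 20 in WT libraries. Dusp23 and Dusp28 had 1 site each, within 1 kb of the start. The Dusp23 site held 2, 2 and 0 reads in UTX-deficient libraries and 54, 33 and 27 in WT libraries, and lay 45 bp from the start of Dusp23 and 39 bp from an end of Gm35601. The Dusp28 site held 0, 1 and 0 reads in UTX-deficient libraries and 27, 17 and 14 in WT libraries. The phosphatase genes without a site were Dusp3, Dusp4, Dusp7, Dusp8, Dusp9, Dusp12, Dusp13, Dusp14, Dusp15, Dusp16, Dusp18, Dusp19, Dusp21, Dusp22, Dusp26 and Dusp27. Of the Sprouty and Spred genes, which encode membrane-associated inhibitors of RAS to ERK signalling, Spry4 alone had sites. Spry4 held 0, 2 and 0 reads in UTX-deficient libraries and 20, 18 and 16 in WT libraries at the site 122 bp outside the gene, and 1, 3 and 0 in UTX-deficient libraries and 28, 16 and 22 in WT libraries at the one 30.4 kb outside, which lay nearer Arhgap26. Spry1, Spry2, Spry3, Spred1, Spred2 and Spred3 had none.

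**Figure D3:**
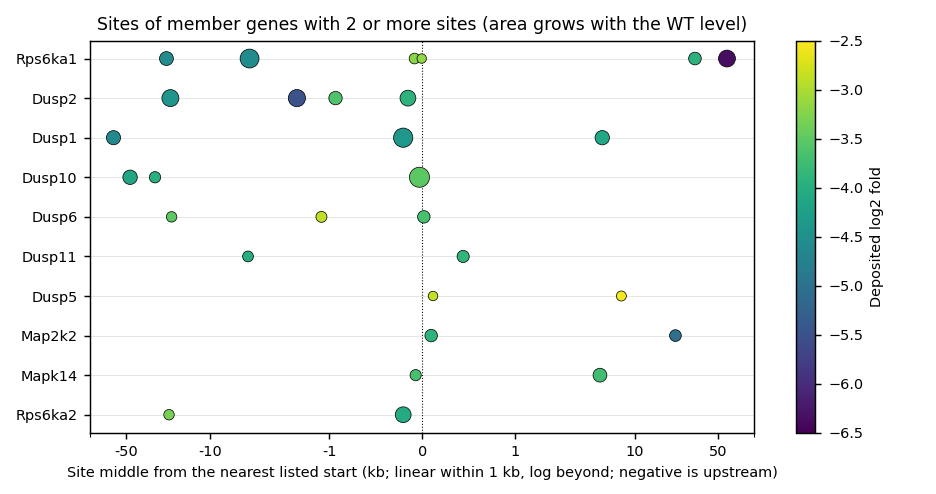
Sites of the 10 member genes with 2 or more sites and a listed start, placed by distance in kb from the nearest listed start (x axis, linear within 1 kb and logarithmic beyond, negative upstream), with colour for the deposited log2 fold (UTX-deficient over WT) and area for the WT level. The site of Rps6ka1 farthest downstream has the lowest fold, -6.36, and all 4 sites of Dusp2 lie upstream of its start.

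By distance to a start the members were close to the table, and fewer lay inside their gene. Within 1 kb of a listed start lay 29 of the 50 member sites whose gene has one (58%), against 60.9% of all such sites. The nearest gene end was that of the assigned gene at 40 of 59 member sites (67.8%), against 70.2% of all sites placed, and the middle of the site lay inside the assigned gene at 24 of 59 (40.7%), against 52.7%. Sites near a start and sites farther away had similar medians: within 1 kb the median log2 fold of the members in the authors' deposited table was -3.84 (29 sites), and farther away it was -3.97 (21 sites). Over the whole table the same medians were -3.55 and -3.46. No test was made of these differences.

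**Figure D4:**
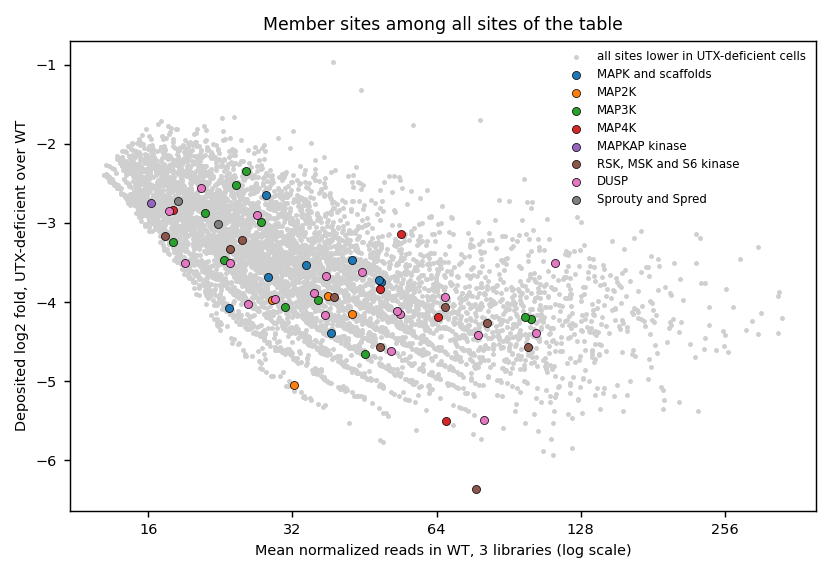
Deposited log2 fold (UTX-deficient over WT, y axis) against the mean normalized reads of the 3 WT libraries (x axis, log scale) for all sites lower in UTX-deficient cells (grey) and for the member sites coloured by family. Member sites reach a WT level of 113 normalized reads, which 258 sites of the table exceed, up to 338, and the Rps6ka1 site at -6.36 has the lowest log2 fold of the table.

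The 27 promoter windows of 300 bases (250 before to 50 after a listed start) that a member site overlapped, from 24 genes, were rich in G and C, with a median of 66.7%, against 64% for the 3741 windows of protein-coding genes with a site and 56.3% for all 21263 windows. Searched on both strands, GGGCGG occurred in 19 of the 27 windows (70.4%), against 79.3% of windows with a site and 46.2% of all windows. TGACGT occurred in 6 (22.2%), against 15.5% and 8.49%. The ETS letters CCGGAAG were found in 1 of the 27 (3.7%), against 20.7% of windows with a site and 11.6% of all. The AP-1 letters TGANTCA were found in 1 (3.7%, against 3.29% and 6.99%), the Runx letters TGTGGT in 2 (7.41%, against 11.3% and 15%), and GCGCATG in 1, that of Map2k2 (3.7%, against 8.98% and 4.8%). With so few windows these shares are a description, and windows that lack a motif say nothing of the factor.

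Of the 57 member genes with no assigned site, 4 lay within 1 kb of a site that the authors assigned to a neighbour. These were noticed after the values had been seen. Besides Map2k3, described above, Rps6kb1, the gene of the S6 kinase downstream of mTOR, had a site 64 bp from its start that was assigned to Tubd1. It held 0, 2 and 0 reads in UTX-deficient libraries and 32, 39 and 21 in WT libraries, and its log2 fold was -4.16 per the authors' deposited table. A strong site assigned to Tarbp2, 1000 bp from the start of Map3k12, held 2, 4 and 0 reads in UTX-deficient libraries and 143, 107 and 87 in WT libraries. The site near Mapk1ip1, assigned to Ppp2r2d, held 4, 2 and 0 reads in UTX-deficient libraries and 41, 28 and 20 in WT libraries. A count of member genes therefore depends on which of a pair of neighbouring genes a site is given to.

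The rest of the pathway was looked at through 4 lists of genes that are not members. A site lower in UTX-deficient cells lay at 52 of 80 such genes (65%) against 22.1% of protein-coding genes. These lists, too, were chosen with earlier results known. Among genes that act between the receptor and RAF, 13 of 23 had a site, and the authors' deposited table puts log2 folds between -5.15 and -2.47 at the site of smallest FDR of each gene. For a gene of these lists with several sites, the values given here are those of that one site. Rasgrp2, an exchange factor that switches on RAP, stood lowest, with 4 and 5 reads in the 2 deeper UTX-deficient libraries and 202, 156 and 78 in WT libraries. Among adaptors and further kinases of the stress branches, 12 of 18 genes had one. The kinase genes among those with a site were Taok1, Taok2, Taok3, Tnik, Mink1 and Nlk. Traf3, an adaptor that holds NIK in check, was at -4.48 in the authors' deposited table. Of the Gadd45 genes, Gadd45a and Gadd45g had a site but not Gadd45b.

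The outputs of the cascades had the highest share, 21 of 27 genes. They included the AP-1 genes Fos, Fosb, Fosl2, Jun, Junb and Jund and the early growth response genes Egr1, Egr2 and Egr3. At Egr1, a factor induced through ERK, the one of 3 sites with the smallest FDR held 6 and 6 reads in the 2 deeper UTX-deficient libraries and 157, 112 and 102 in WT libraries. Jun, a target of JNK, held at the one of its 3 sites with the smallest FDR 15 and 20 reads in the 2 deeper UTX-deficient libraries and 121, 78 and 63 in WT libraries, and the authors' deposited table puts that site at -2.71 on the log2 scale. The authors' deposited table gives log2 folds of -5.42 at Creb1, the gene of a factor phosphorylated by RSK and MSK, and of -5.89 at Zfp36l1, the gene of an mRNA decay factor phosphorylated in this pathway, at the one of its 2 sites with the smaller FDR. Of other phosphatases that act on MAP kinases or their regulators, 6 of 12 had a site, among them Ptpn7, a lymphoid tyrosine phosphatase of ERK and p38, with 6 and 3 reads in the 2 deeper UTX-deficient libraries and 100, 96 and 62 in WT libraries. Myc, Elk1, Elk3, Atf1, Mef2c and Mknk1 were the output genes without a site.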

How the data were processed

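UTX CUT&Tag was read in 6 samples, 3 UTX-deficient and 3 WT, grouped by the genotype in the labels, from 1 table of the authors' comparison on mm10. The submitters' processing notes name cutadapt, FastQC, Bowtie2, Picard, SAMtools, DiffBind and MACS2, with roles and versions not given in the sources used here. Nor is it said whether replicates were pooled for peak calling. The table holds, per the file headers, log2 concentrations (mean normalized reads per group), a log2 fold, a p-value and an FDR per site. The deposited p-values and FDR values are the authors' own, with 8293 tests behind the FDR, of which 1554 lie outside the table.

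Members were found by gene symbol as the authors assigned it. The members, pathway lists, motifs and rule for named sites were chosen with earlier results of these data known. The named sites are, per family, the 2 of smallest FDR and the one of lowest fold, those of every gene with 2 or more sites, and those of chosen central genes; others were picked with their values in view. Positions use RefSeq genes of GRCm38.p6, and starts come from its promoter table, which holds 31 of the 37 member genes and not Map3k8, Map4k4, Map3k19, Spry4, Map3k2 and Mapk3.

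Whole reads per library were recovered by solving each group's summed concentration for 3 whole numbers of reads. Of 6739 sites, 6727 were solved in both groups, and the depths found summed to 6.0000 over the 6 libraries. Of 1000 sums shifted at random, 0.1% (UTX-deficient) and 0.5% (WT) were solved. Tested on 3 simulated tables, at least 99.9% of sites were solved and 0 wrongly. As these tables were built with a nearly empty library, they leave untested whether one could be found falsely. Sites were tested with limma 3.58.1 in R 4.3.3 on log2(normalized reads + 1) over the whole table, with no filter and Benjamini-Hochberg adjustment at 0.05. The pseudocount understates the change at low sites. Exact 95% intervals (Clopper-Pearson, of UTX-deficient against WT reads, scaled by depth) and floors of 3 reads cover counting error only, since without molecular identifiers reads may be copies of 1 molecule. Nothing says that samples came from separate animals, so p-values measure the spread between these samples, which may be technical. Alternatives changed the FDR threshold, test, libraries, pseudocount, filter, scaling, distance, assignment and motif window. Values of a few genes are not reported here.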

Additional observations from a re-analysis of the deposited data

How the results depend on the processing

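All 59 member sites stayed called lower by limma with every library, without each library in turn, with pseudocounts of 0.5 and 5 and with at least 10 reads per site. Of the members, 58 and 47 passed a deposited FDR of 0.01 and 0.001. Among the 6718 sites of the whole table lower in UTX-deficient cells, 5836 and 4902 passed these thresholds. With libraries scaled to equal totals, which by construction gives every library the same sum over the table, 5 member sites were called (270 of all sites). The median log2 difference of all sites then moved to -1.57 and that of the members to -1.76, and 0 member sites were higher in UTX-deficient cells. This fit kept the nearly empty library, which has no read at any member site, and was not run without it. Neither the medians nor the count of 0 therefore shows the direction in the well-sequenced UTX-deficient libraries under that scaling. The members' median was -4.28 by limma with all libraries, -4.87 with a pseudocount of 0.5 and -2.75 with one of 5. The difference in library means, -42.4 normalized reads, was -35.5 with the median over sites, and leaving out each library in turn gave values from -43.9 to -40.8. At the 45 sites named by rule, 360 alternatives of libraries and pseudocount kept direction and call, with limma adjusted p from 4.46e-27 to 0.00558. Except where the nearly empty library was left out, each alternative counted its empty value at these sites as measured. Such alternatives add little independent support, and scaling to equal totals is not among the 360. Of all sites, limma called 99.8% lower with every library and 99.8% without the nearly empty one, so the calls are not particular to the named sites. With a window of 200 bases the AP-1 letters were in 0 and the Runx letters in 1 of the member windows. The 36 genes with a site became 35 within 10 kb of the gene and 30 within 1 kb of a gene end, and the 52 pathway genes became 51 and 36. The share of all protein-coding genes was not counted under these distances. The 22.1% given above is for any distance, so it is no background for these counts. No paired analysis was possible because the deposited columns carry no replicate number. In the nearly empty library, depth allows no statement at any member site.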
